A study of Mus musculus with 12 samples.

Results

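Genes named after full-length cDNA clones of the RIKEN testis libraries were followed through RNA immunoprecipitation of the LINE-1 (L1) protein ORF1p from Mael-/- mouse testes. They were the genes with a clone name of 1 of 6 series, those of 1700001L05Rik, 4921524J17Rik, 4930447C04Rik, 4931406P16Rik, 4932438A13Rik and 4933406J08Rik, and were selected on a mean of at least 50 normalized counts in TOTAL. Of 744 such genes among 20981 genes in all, 97 met this limit and are called testis-clone genes here. The limit used the TOTAL mean, so levels in TOTAL are a description, and every ratio over TOTAL is given without a test. Of the 97 genes, 46 share the first digits of 1700001L05Rik, 27 those of 4930447C04Rik and 15 those of 4933406J08Rik.

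These clone names mark transcripts that were first sequenced from testis cDNA and were given a placeholder until a function was assigned. Much of the testis-restricted transcriptome, coding and noncoding, is switched on in meiotic and postmeiotic germ cells, and many such genes still have only a clone name. ORF1p is the RNA-binding protein encoded by L1, a retrotransposon that copies itself through an RNA intermediate. ORF1p coats L1 RNA to form ribonucleoprotein particles, and the same protein can also be found with cellular mRNAs. Mael is needed for the piRNA pathway that silences transposons in the male germline, and spermatocytes that lack it overexpress L1.

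All samples were testes of C57BL/6 Mael-/- mice aged 3 months, and no wild-type testis was among them. TOTAL was the whole clarified extract in 10 mM EDTA, which takes ribosomes apart. INPUT was the pool of sucrose gradient fractions 5 to 8 of that extract, IP was the RNA pulled down from INPUT with an antibody to ORF1p, and BO (Beads Only) was the RNA held by beads without antibody. Each group had 3 libraries, 12 in all, made from rRNA-depleted RNA, and the design text of the series calls the 3 libraries biological replicates. The material was whole testis, so its somatic cells are part of every group.

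The gene tables give only the mean of each group as the authors normalized it, in 1 table for IP with each other group. No spread between libraries could therefore be given, no difference was tested, and the sequencing depth behind the means is unknown. Ratios are log2 of 2 group means after adding 1 to each, and a gene is called higher or lower when it passed 2-fold. The 3 tables were normalized separately and share the IP libraries, so their ratios are not independent. The mean of Mael itself was 0.65 in TOTAL, 0.502 in BO and 0 in IP and INPUT. Within single libraries of the repeat data, the young subfamilies L1Md_A and L1Md_T together took 6.04% to 10.2% of the signal in IP and 0.609% to 1.29% in TOTAL. They took 1.28% to 2.02% in INPUT and 0.765% to 1.67% in BO. 7SL RNA took 38.1% to 51.6% of the signal in TOTAL and 1.16% to 1.63% in IP, and shares within a library depend on each other. One BO library stood apart, with 52.1% of its repeat signal on large subunit rRNA where the other libraries of all groups ranged up to 15.9%. BO gene means include that library and could not be computed without it.

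A pair of X-linked genes is shown first because it had the lowest IP over TOTAL ratios of all 97. 1700011M02Rik lies at chrX:102908905-102909651 and 1700018G05Rik at chrX:102928372-102929094 (mm10), both on the plus strand and 18721 bases apart. GENCODE M21 calls both protein coding and RefSeq calls both lncRNA. Their longest transcripts, of 420 and 386 bases, were 82.4% identical over 380 aligned bases. The spliced GENCODE coding sequences, which span chrX:102908973-102909563 and chrX:102928428-102928962, are given with the longest run they share, 21 bases, in capitals.
1700011M02Rik: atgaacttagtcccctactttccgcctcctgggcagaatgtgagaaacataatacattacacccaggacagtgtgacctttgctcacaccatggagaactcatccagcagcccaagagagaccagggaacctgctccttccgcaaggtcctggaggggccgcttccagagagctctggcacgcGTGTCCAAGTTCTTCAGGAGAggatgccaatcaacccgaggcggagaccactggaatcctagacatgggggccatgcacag
1700018G05Rik: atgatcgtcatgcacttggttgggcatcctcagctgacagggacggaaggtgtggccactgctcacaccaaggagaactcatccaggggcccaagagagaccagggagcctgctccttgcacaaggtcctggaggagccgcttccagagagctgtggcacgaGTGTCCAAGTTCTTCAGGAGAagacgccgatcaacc
The shared run is shorter than a 75-base read, and no 75-base window of one transcript occurred in the other. In the longest transcript of 1700011M02Rik, 7.51% of such windows also occurred in Gm9112.

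IP over TOTAL compared the pull-down with the whole extract, so it also takes in the choice of fractions and any RNA held by the beads. Testis-clone genes were spread widely, from -4.60 to 3.38, with a median of 0.27. All 12298 genes with a TOTAL mean of at least 50, the testis-clone genes among them, had a median of -0.02 and serve as the background. Of the 97 genes, 36 were more than 2-fold higher in IP, or 37.1%, against 20.1% of all genes. A further 25 were more than 2-fold lower, or 25.8%, the same share as the 25.8% of all genes. When group means were scaled to their sums over genes instead, 24 testis-clone genes were higher and 38 lower with a median of -0.25, and all genes then had 9.07% higher, 37.8% lower and a median of -0.53. Without the limit on TOTAL, 121 of the 744 genes were higher (16.3%) and 187 lower (25.1%) with a median of -0.31, beside 17.5% and 24.2% of all 20981 genes and a median of -0.03.

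**Figure D1:**
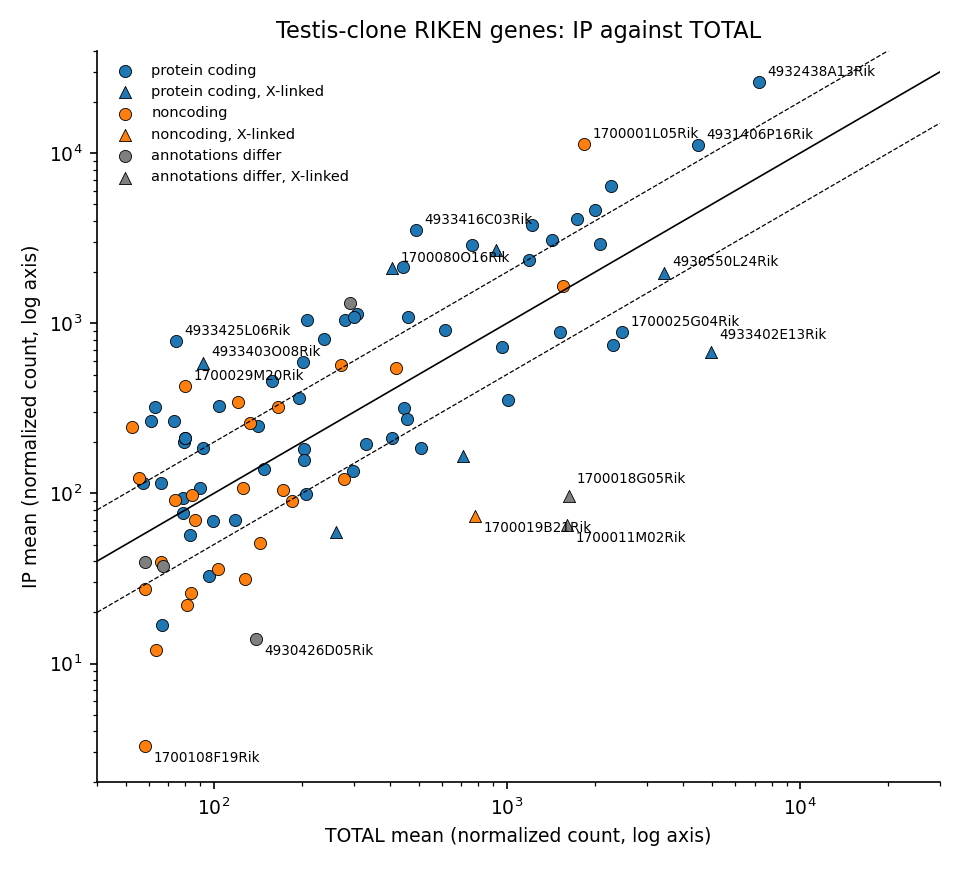
IP mean against TOTAL mean of the 97 testis-clone genes, both as normalized counts on log axes, with 1 point per gene, triangles for X-linked genes and colours for the annotated class. The solid line marks equal means and the dashed lines 2-fold. With 1 added to each mean, 36 genes were past 2-fold higher and 25 past 2-fold lower, and 4 of the 6 lowest ratios belong to X-linked genes.

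The highest ratio belonged to 4933425L06Rik (Nt5el; chr13:105082122-105121782, plus strand), whose mean was 74.4 in TOTAL and 784 in IP. 4933416C03Rik (Taf7l2; chr10:116111664-116113917, minus strand), related by name to the TFIID subunit Taf7l, had 488.9 in TOTAL and 3518 in IP, a log2 ratio of 2.84. It lies opposite Ptprr, and 26.5% of its 75-base windows also occurred in that gene, so reads there could come from either gene. The X-linked 4933403O08Rik had 91.9 in TOTAL and 588 in IP, a log2 ratio of 2.66. In BO the means of these 3 coding genes were 113.9, 648.6 and 164.9, well under their IP means in the table shared with BO (601.2, 2696 and 449.8).

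The 5 highest TOTAL means were those of 4932438A13Rik (7232), 4933402E13Rik (4977), 4931406P16Rik (4495), 4930550L24Rik (3450) and 1700025G04Rik (2471). 4931406P16Rik had 11175 in IP (log2 ratio 1.31) and 4930550L24Rik had 1988 (-0.79). 1700025G04Rik, a coding gene with a longest transcript of 9559 bases and exons opposite Gm28610, had 889 in IP, a log2 ratio of -1.47. Over BO the log2 ratios of these 5 genes, in the order listed, were 1.03, -1.56, -0.50, 1.31 and 0.17. For 4931406P16Rik the BO mean was 12055 and the IP mean beside it 8552, so beads alone held more.

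Noncoding RNAs stood beside coding ones at the top. 1700001L05Rik, a lincRNA at chr15:83353847-83367282 on the minus strand, had 1839 in TOTAL and 11266 in IP, a log2 ratio of 2.61. It was the most abundant of the genes past a log2 ratio of 2, and its IP mean was the second largest of the 97 after 4932438A13Rik. 1700029M20Rik, also a lincRNA, had 79.6 in TOTAL and 428.5 in IP, and the X-linked coding gene 1700080O16Rik had 407 in TOTAL and 2101 in IP. Over BO the log2 ratio of 1700001L05Rik was 1.35, with 3385 in BO and 8619 in IP. Those of 1700029M20Rik and 1700080O16Rik were 2.40 and 3.98, beside a median of 0.82 for all genes.

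At the other end, 1700011M02Rik had 1601 in TOTAL and 65.2 in IP, and 1700018G05Rik had 1623 in TOTAL and 96.7 in IP. 1700019B21Rik (Tslrn1), a noncoding RNA, had 779 in TOTAL and 73.9 in IP. The coding gene 4933402E13Rik, which lies 218461 bases from it on the X chromosome, had 4977 in TOTAL and 682 in IP. The log2 ratios of these last genes were -3.38 and -2.87. 1700108F19Rik, noncoding, had 58.3 in TOTAL and 3.28 in IP, and 4930426D05Rik, which lies opposite Klhl14, had 139.4 in TOTAL and a log2 ratio of -3.23.

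Levels can be compared between genes per kb of the longest transcript. In bulk tissue, a low TOTAL level from fewer cells of a type and one from less RNA per cell cannot be told apart. In TOTAL, the 6 highest per kb were 1700018G05Rik (4206), 1700011M02Rik (3812), 4933402E13Rik (2526), 4930550L24Rik (2049), 4930447C04Rik (1108) and 1700019B21Rik (1043). All but 4930447C04Rik are X-linked. In IP the 6 highest were 4930447C04Rik (3119), 1700001L05Rik (2267), 1700013H16Rik (2196), 4931406P16Rik (1795), 4932438A13Rik (1651) and 4933416C03Rik (1561), and of these only 1700013H16Rik, named here after its values were seen, is X-linked. 4930447C04Rik, the synaptonemal complex gene Six6os1, was the one gene among the 6 highest in both orders. Over BO the log2 ratios of the 6 highest in IP, in the order listed, were 0.90, 1.35, 2.61, -0.50, 1.03 and 2.05.

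For 8 of the genes a role is well known. Of these, 4 that act in meiosis or in cilia were more than 2-fold higher in IP than in TOTAL. 4930447C04Rik, a central element protein of the synaptonemal complex that holds paired meiotic chromosomes together, had 2272 in TOTAL and 6397 in IP (1.49). 4933406J08Rik (Terb2) and 1700123I01Rik (Majin) encode partners in the complex that ties meiotic telomeres to the nuclear envelope. Terb2 had 207.9 in TOTAL and 1048 in IP (2.33), and Majin had 80.0 and 212 (1.39). 1700003M02Rik (Cfap206), a cilia and flagella protein, had 79.3 and 201.1 (1.33). Over BO, 4930447C04Rik fell short of 2-fold, with a BO mean of 2636 and a log2 ratio of 0.90. The ratios of Terb2, Majin and Cfap206 over BO were 2.15, 2.72 and 2.63. Further genes with a ciliary name, chosen after their values were seen, were mixed. 4933411K20Rik (Cfap97) was higher, with 1221 in TOTAL and 3784 in IP (1.63). 4930452B06Rik (Cfap20dc, -0.04) and 1700040L02Rik (Cabcoco1, 0.26) lay within 2-fold.

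The remaining 4 of the 8, known from other tissues as well, did not share a direction. 4932438A13Rik, a giant bridge-like lipid transfer protein with a longest transcript of 15883 bases, had the highest mean of all 97 in TOTAL, 7232, and 26228 in IP (1.86). 1700021K19Rik (Rubcn, the autophagy regulator Rubicon) had 2080 and 2908, short of 2-fold. 4930506M07Rik (Shtn1, shootin1, known from axon outgrowth) was lower, with 2305 in TOTAL and 749 in IP (-1.62). 1700020I14Rik (Oip5os1, the long noncoding RNA Cyrano, which triggers decay of miR-7) had 1549 in TOTAL and 1657 in IP. Its BO mean was 5623, exceeded among the 97 genes only by those of 4931406P16Rik (12055) and 4932438A13Rik (9829).

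IP over INPUT compared the pull-down with the fractions it was made from. Again 36 genes were more than 2-fold higher, where 19.6% of all genes were, and 12 were lower, or 12.4% against 14.6% of all genes. The median was 0.54 and that of all genes 0.16. Scaled to the summed gene means, 27 were higher and 26 lower, with 8.07% and 27.9% of all genes.

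The highest ratio was that of 1700020N01Rik (chr10:21593145-21622376, plus strand), coding by GENCODE and lncRNA by RefSeq, with 156.6 in INPUT and 1318 in IP, a log2 ratio of 3.06. 4933425L06Rik followed with 120.3 in INPUT and 788 in IP (2.70). 4921524J17Rik, which lies opposite another clone gene, had 180.9 in INPUT and 1088 in IP (2.58). 4933416C03Rik and 1700019A02Rik completed the 5 highest at 2.47 and 2.43. The 5 lowest were 4930426D05Rik (-2.67), 1700108F19Rik (-2.46), 1700011M02Rik (-2.30), 1700086O06Rik (-1.56) and 1700018G05Rik (-1.53), and no member of this group is annotated as coding by both GENCODE and RefSeq.

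IP over BO compared the pull-down with beads alone. Here 50 genes, or 51.5%, were more than 2-fold higher against 44.0% of all genes, and 7 were lower, or 7.22% against 10.7%. The median was 1.04 and that of all genes 0.82. Centred on the median gene, 30 were higher and 16 lower, with 17.7% and 23.6% of all genes.

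The same gene, 1700020N01Rik, led this comparison with 48.6 in BO and 1005 in IP (4.34). 1700088E04Rik had 4.56 in BO and 88.6 in IP (4.01), and lies opposite exons of Micall1 and Polr2f. 1700080O16Rik had 101.2 and 1612 (3.98), 1700019A02Rik 14.7 and 205.6 (3.72), and 1700029P11Rik 18.4 and 204.8 (3.41). With a pseudocount of 10 in place of 1, the ratio of 1700088E04Rik was 2.76 and that of 1700019A02Rik 3.13. The lowest were 4930595M18Rik, with 225.6 in BO and 45.6 in IP (-2.28), 1700020I14Rik with 5623 and 1269 (-2.15), 4930506M07Rik with 1814 and 574 (-1.66), 4933402E13Rik with 1539 and 522 (-1.56), and 4930502E18Rik (Ct55) with 317.7 and 126.9 (-1.32). Of these 5 genes 3 are X-linked. Of the X-linked pair with the lowest ratios over TOTAL, 1700011M02Rik had 28.6 in BO and 49.9 in IP (0.78) and 1700018G05Rik had 44.1 and 73.9 (0.73). Centred on the median gene, whose ratio was 0.82, these values became -0.03 and -0.09.

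**Figure D2:**
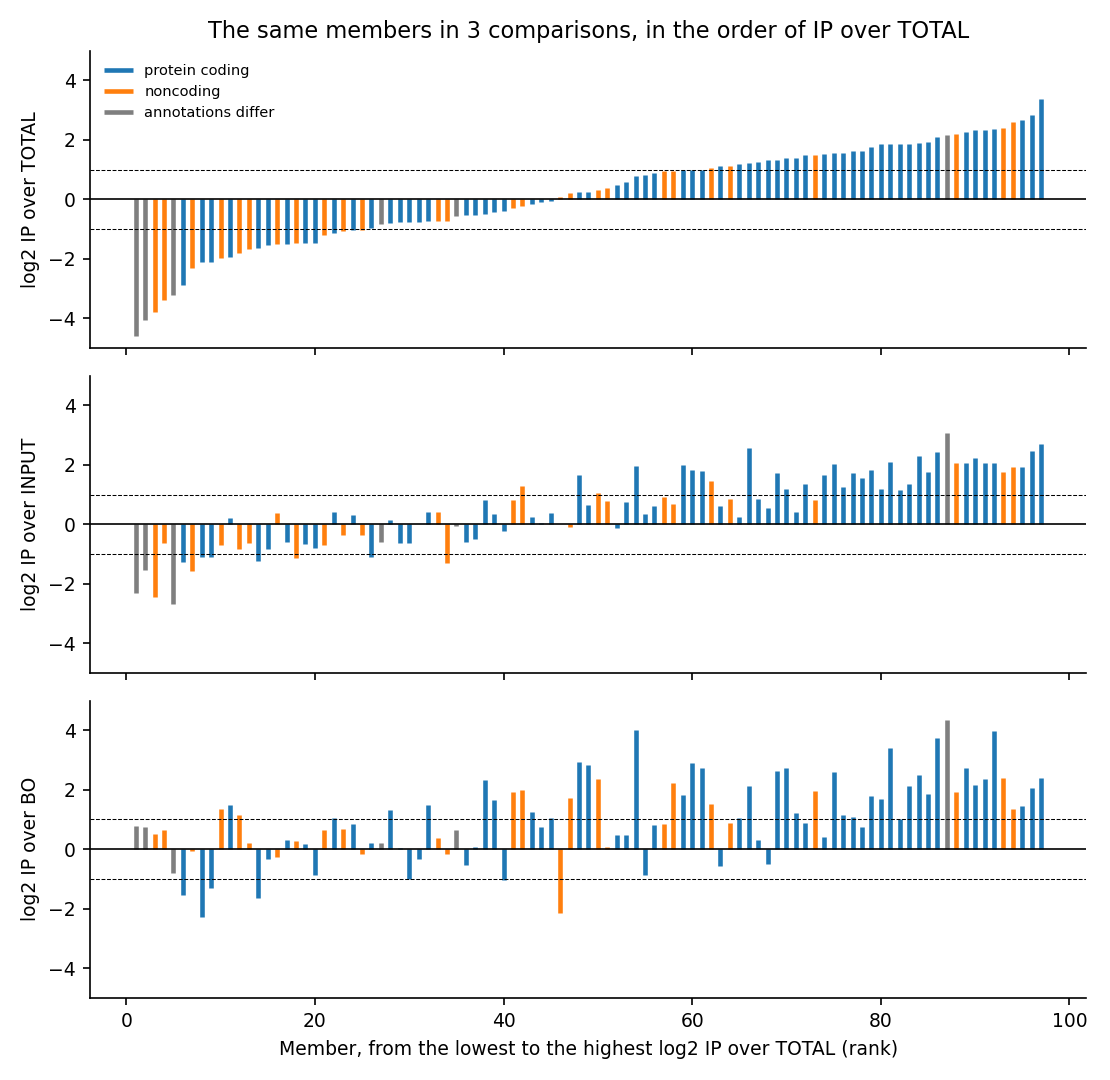
log2 IP over TOTAL, IP over INPUT and IP over BO of the 97 testis-clone genes, 1 bar per gene, in the order of IP over TOTAL in every panel and coloured by annotated class, with dashed lines at 2-fold. The panels share the IP libraries. The medians are 0.27 over TOTAL, 0.54 over INPUT and 1.04 over BO, and the 5 lowest genes over TOTAL lie between -0.79 and 0.78 over BO.

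INPUT over TOTAL shows which transcripts were kept in gradient fractions 5 to 8. No table holds both groups, so this ratio was taken through the IP mean of 2 separately normalized tables, whose IP means differed by a median factor of 1.004. No testis-clone gene was more than 2-fold higher, where 1.98% of all genes were, and 21 were lower, or 21.6% against 18.5% of all genes. The 5 lowest were 1700019B21Rik (779 in TOTAL and 114.3 in INPUT, -2.76), 1700018G05Rik (1623 and 281, -2.53), 1700011M02Rik (1601 and 326.4, -2.30), 1700007K13Rik (66.6 and 14.7, -2.12) and 1700096K18Rik (103.0 and 27.3, -1.87). Their longest transcripts were 386 to 1454 bases long. The 5 highest were 4933427G17Rik (Mfsd13b, 0.999), 4930402H24Rik (0.95), 4931406P16Rik (Garre1, 0.77), 4933403O08Rik (0.72) and 4930451G09Rik (0.70).

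Transcript length moved with some of these ratios. Split at 1863 and 3023 bases so that the 95 testis-clone genes with a GENCODE M21 entry fell into 3 ranges of about equal number, the short, middle and long genes had INPUT over TOTAL medians of -0.80, -0.13 and 0.06. All genes in the same length ranges had -1.19, -0.48 and 0.16. For IP over TOTAL the medians were -0.39, 0.37 and 0.81 beside -1.38, -0.34 and 0.36 for all genes. In the short range, 10 of 32 testis-clone genes, or 31.2%, were more than 2-fold higher over TOTAL, and 106 of 2054 genes, or 5.16%, were. Over BO the order was turned around, with medians of 1.70, 1.14 and 0.42 beside 1.38, 1.16 and 0.49. For IP over INPUT the medians were 0.82, 0.66 and 0.39 beside -0.16, 0.19 and 0.23. Spearman's rho of length with INPUT over TOTAL was 0.49 across the 95 testis-clone genes and 0.68 across 12245 genes, and with IP over TOTAL 0.15 and 0.45. With IP over INPUT rho was -0.09 and 0.08. These are correlations across genes, which share the same libraries and are not independent. Testis-clone genes were shorter as a group, with a median longest transcript of 2366 bases beside 3476 bases for all genes.

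**Figure D3:**
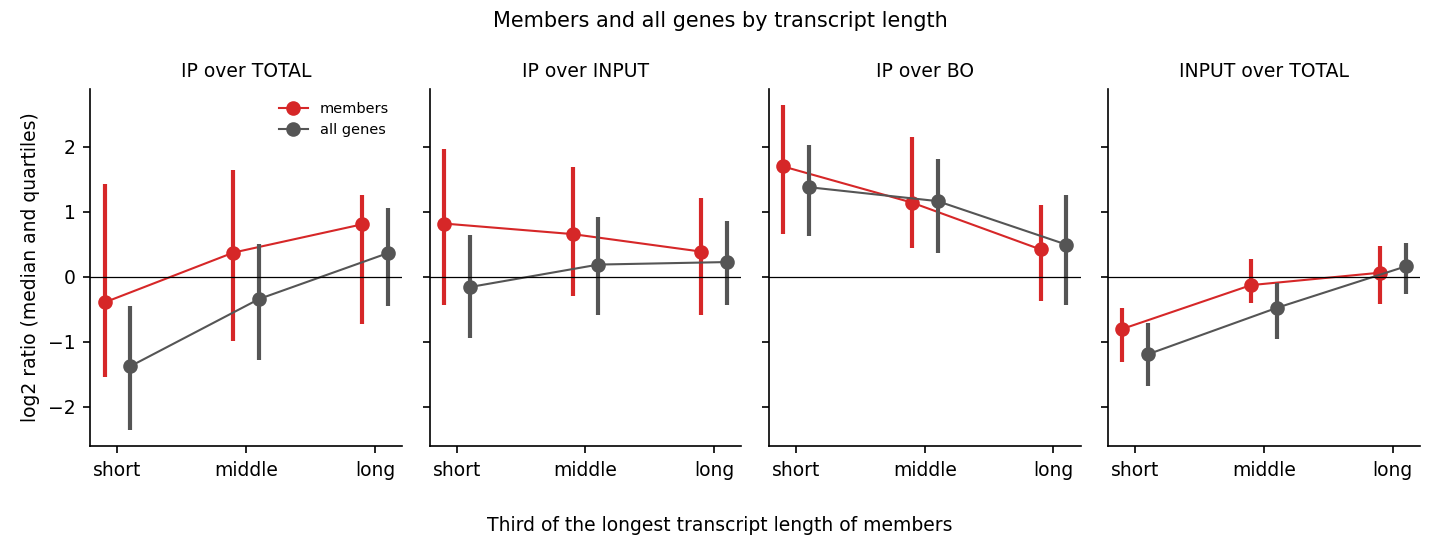
Median log2 ratio (points) and quartiles (bars) of testis-clone genes (red) and of all genes with a TOTAL mean of at least 50 (grey) in 3 ranges of the longest transcript length, in 4 panels for the 4 comparisons. The medians of testis-clone genes lie above those of all genes in each length range for IP over TOTAL, by the widest margin in the short range (-0.39 beside -1.38), while the medians over BO lie closer together.

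Coding and noncoding genes differed in their medians. The 64 genes that GENCODE M21 and RefSeq both call protein coding had a median IP over TOTAL of 0.94, with 29 higher (45.3%) and 11 lower (17.2%). The 27 that neither calls coding had a median of -0.30, with 6 higher (22.2%) and 11 lower (40.7%), and for the remaining 6 the annotations differed (-2.02). Over all genes, coding genes had a median of 0.00 with 20.3% higher and 25.5% lower. The noncoding background was defined more narrowly, by a noncoding GENCODE class other than pseudogene together with lncRNA in RefSeq. These 143 genes had -0.82 with 10.5% higher and 43.4% lower. They leave out some of the 27, such as 1700018B24Rik and 4930451G09Rik, pseudogenes in RefSeq or GENCODE. Among short genes, the 17 coding testis-clone genes had a median of 0.998 with 8 higher and 3 lower, where 1947 short coding genes in all had -1.38 with 5.03% higher and 60.2% lower. The 10 short noncoding ones had -1.04 with 1 higher and 6 lower. In the narrower noncoding background, 57 short genes had -1.37 with 5.26% higher and 61.4% lower. Over BO the classes lay closer, at 1.12 for coding and 0.85 for noncoding testis-clone genes.

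Of the 95 genes with a position, 10 lie on the X chromosome, and they held 4 of the 6 lowest and 2 of the 6 highest ratios over TOTAL. Their median IP over TOTAL was -2.10, with 3 higher (4933403O08Rik, 1700080O16Rik and 1700013H16Rik) and 6 lower, while the 85 autosomal ones had 0.37 with 33 higher and 18 lower. All 508 X-linked genes had a median of -0.43 with 21.1% higher and 35.2% lower, and all 11729 autosomal genes had 0.00 with 20.1% and 25.4%. The X chromosome is transcriptionally silenced in spermatocytes during the pachytene stage, and whether this bears on these ratios was not tested. 4930502E18Rik (709.9 in TOTAL and 165.8 in IP, -2.09) and 1700013H16Rik (920 and 2688, 1.55) lie 4460 bases apart on opposite strands and had opposite directions. 1700011M02Rik and 1700018G05Rik had the same one. Leaving out the X-linked genes gave 33 higher and 19 lower of 87 over TOTAL, a setting added after the data were seen.

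Other RIKEN clone genes, named for clones of other series, were the set most like these. Their 305 genes had a median IP over TOTAL of -0.43 with 42 higher (13.8%) and 105 lower (34.4%). The corresponding medians over INPUT, over BO and of INPUT over TOTAL were 0.09, 0.64 and -0.44.

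Genes of known cell types give the scale. Of 25 spermatocyte genes, 23 had a TOTAL mean of at least 50, 19 of these were higher in IP over TOTAL and none was lower, with a median of 2.28. Sycp1, a synaptonemal complex protein, had 9433 in TOTAL and 71553 in IP, and Spo11, which makes the meiotic DNA breaks, had 202.4 and 1596. Terb2 (2.33) lay close to the median of the spermatocyte genes, which ranged from -0.68 to 3.09. Of 25 spermatid genes 4 reached a TOTAL mean of 50, with 1 higher, 1 lower and a median of 0.47. These were the sperm tail genes Akap3 (1.66), Odf2 (0.93) and Akap4 (-2.80) and the acrosome gene Spaca1 (0.01). Of all 744 testis-clone names, 89 were listed at 0 in TOTAL, beside 1507 of all 20981 genes. A TOTAL mean of at least 50 was reached by 97 of the 744 names and by 12298 of the 20981 genes. Of 10 Sertoli cell markers 8 were lower in IP over TOTAL and none was higher (median -1.69), and all 6 Leydig cell markers were lower (median -2.57). Insl3, a Leydig cell hormone, had 1744 in TOTAL and 90.1 in IP. The 4 of 5 peritubular and macrophage markers in the table had a median of -1.77, with 2 lower and none higher, and Adgre1 was not analysed here. Whether the somatic share of the extract had a part in the lower testis-clone genes was not tested.

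**Figure D4:**
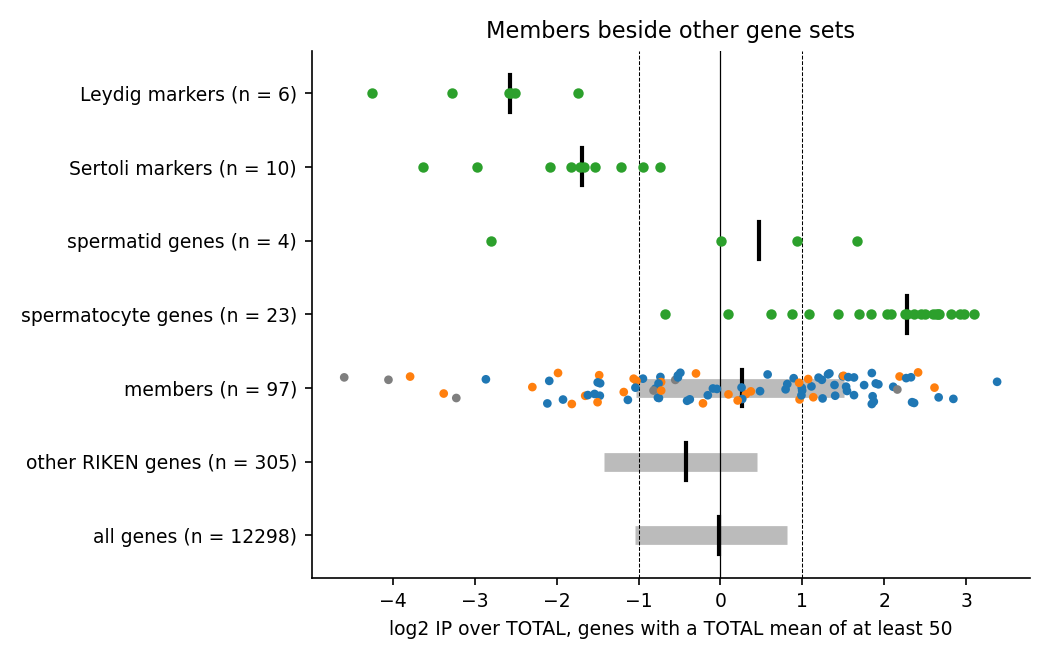
log2 IP over TOTAL of testis-clone genes (1 point per gene, coloured as protein coding in blue, noncoding in orange, annotations differing in grey), of spermatocyte, spermatid, Sertoli and Leydig cell genes (green points), and of other RIKEN genes and all genes as grey bars from the lower to the upper quartile, with black ticks at medians. All are genes with a TOTAL mean of at least 50. Testis-clone genes span the range from the Leydig markers (median -2.57) to the spermatocyte genes (median 2.28).

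Promoters were read because the spermatocyte factor MYBL1 (A-MYB) drives many meiotic genes. RefSeq windows from 250 bases before to 50 bases after a start site were found for 81 of the 97 genes, in 90 windows. The MYB letters TAACTG, with C also allowed as the first base and G as the fifth, occurred on either strand in 37 of 90 windows, or 41.1%, and in 28.3% of all 32851 windows. They occurred in 16 of 30 windows of 29 genes higher in IP over TOTAL and in 4 of 23 windows of 19 genes lower. The share among all genes higher or lower was not computed, so this split has no background and nothing is drawn from it. The 32851 windows are those of 27025 genes without a limit on TOTAL. The letters TGACGTCA of CREB and CREM were in 1 window (1.11% beside 1.79% of all), and GTTGCC, which RFX factors read and which can share bases with a MYB match, in 13 (14.4% beside 12.5%). Among the 6 highest genes, 4933425L06Rik and 1700080O16Rik held the most MYB matches, 2 each, and the 250 bases before their start sites (GRCm38.p6, chr13:105081872-105082121 on the plus strand and chrX:51972773-51973022 on the minus strand) are given with the matches in capitals.
4933425L06Rik: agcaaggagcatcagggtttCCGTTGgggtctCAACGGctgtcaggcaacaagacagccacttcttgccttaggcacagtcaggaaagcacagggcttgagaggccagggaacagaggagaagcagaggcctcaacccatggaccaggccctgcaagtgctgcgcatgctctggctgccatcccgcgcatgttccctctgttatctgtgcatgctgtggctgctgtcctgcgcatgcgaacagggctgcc
1700080O16Rik: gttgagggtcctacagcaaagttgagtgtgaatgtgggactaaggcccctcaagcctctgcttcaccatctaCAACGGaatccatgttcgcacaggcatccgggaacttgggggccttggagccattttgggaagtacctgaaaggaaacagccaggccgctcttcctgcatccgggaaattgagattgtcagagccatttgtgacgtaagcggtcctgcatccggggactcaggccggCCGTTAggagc
Of the other highest genes, 1700001L05Rik and 4933403O08Rik held 1 match each in their windows, and 1700029M20Rik and 4933416C03Rik held 0. Among genes lower over TOTAL, 4930595M18Rik also held 2, and 1700108F19Rik and 1 window of 1700019B21Rik held 1 each. The windows of 1700018G05Rik and 4933402E13Rik held 0. A match is only the occurrence of these letters, and no binding was measured.

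Some values may hold reads of another gene. Exons of 35 of the 95 genes overlap an annotated gene on the opposite strand and those of 6 one on the same strand, 1 gene having both, while 55 share no exonic base, and the use of strand in counting is not stated. Named genes with exons opposite another gene include 4930447C04Rik (Six6), 1700021K19Rik (Fyttd1) and 4932438A13Rik (Gm12531), and 40.1% of the windows of 4931406P16Rik also occurred in Gm12758. Among the 55, 23 were higher (41.8%) and 14 lower (25.5%) over TOTAL, with a median of 0.58, beside 19.7% and 27.2% of the 7737 genes in all that share no exonic base and a median of -0.03. For 19 genes more than 10% of the 75-base windows also occurred in another gene, the most for 4930486L24Rik (88.1%, with Gm49392 and Gm49393) and 4930442J19Rik (79.5%, with Gm14144 and Gm14152), both chosen here after their values were seen. At the limit on TOTAL, the genes just inside were 4930442J19Rik (52.8 in TOTAL and 244 in IP), 4930513N10Rik (55.7 and 123.3) and 1700125H20Rik (57.3 and 115). Those just outside were 1700123L14Rik (49.0 and 3.84), 4930568E12Rik (48.2 and 124.9) and 4930558J18Rik (47.7 and 226.2).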

How the data were processed

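RNA-seq of TOTAL, INPUT, IP and BO samples from Mael-/- testes, 3 libraries each, was analysed from the deposited tables. Reads had been aligned by the authors to mm10 using STAR v2.6.0c, and read counts per gene normalized using DESeq2 v1.24.0. The deposited signal used here is the authors' mean of the normalized count in each group, in 3 tables of 802920 rows (genes and single repeat loci) for IP beside TOTAL, INPUT or BO. The gene annotation and counter are not given in the sources used here. The tables also hold the authors' log2 fold change with its standard error, the Wald statistic and p-values, none of which was used. The repeat table, used only for shares within libraries, holds the authors' upper quartile normalized signal per repeat subfamily.

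No values per library exist for genes in the files used, so depth is unknown and no test was run. Ratios were computed with pandas 2.3.3 as log2 of the means plus 1, with a limit of 2-fold. The 4 rows that name no gene (reads without a feature, unmapped, ambiguous or mapped to many places, in the row names that STAR writes) were left out. They held 22.1% to 38.6% of the means outside repeat loci. The ratio step was tested on simulated means. Class, length and sequence came from GENCODE M21 (95 of 97 genes matched) and RefSeq GRCm38.p6, both on the authors' build. Windows are 75 bases, and the transcripts of 1700011M02Rik and 1700018G05Rik were aligned with Biopython 1.88.

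Genes named were the 5 or 6 highest and lowest in each comparison, the 5 highest in TOTAL, those around the limit, and those with a well-known role. The members and gene lists were chosen with earlier results of these data known. Repeats in exons, planned, were not examined because repeat rows carry no coordinates.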

Additional observations from a re-analysis of the deposited data

How the results depend on the processing

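Counts past 2-fold and medians of testis-clone genes were recomputed for the 4 comparisons under other settings, and 95 of 128 values stayed within 1.5 times the value reported, on the linear scale for medians. No paired analysis was possible because the gene tables hold group means, and for the same reason no replicate could be left out. Scaled to the summed gene means, 38 genes were lower over TOTAL, 26 were lower over INPUT and 1 was higher in INPUT over TOTAL. The matching shares of all genes were 37.8%, 27.9% and 2.12%. The IP over TOTAL median then turned to -0.25 and that over INPUT was 0.01. Centred on the median gene, 30 were higher and 16 lower over BO with a median of 0.22, and 2 were higher in INPUT over TOTAL. The matching shares of all genes were 17.7%, 23.6% and 4.78%. With a pseudocount of 0.1, 1 gene was higher in INPUT over TOTAL. Centring on the median gene lowers every ratio over BO by the same 0.82. All 36 named genes therefore moved by over 1.5 times there, which tells nothing about single genes. With a pseudocount of 10, 6 values of named genes moved that far. Among them were 1700108F19Rik over TOTAL (-2.36) and INPUT (-1.30) and 4930426D05Rik over TOTAL (-2.64). Of 97 genes at a ratio of 1.5, 24 were lower over INPUT, and INPUT over TOTAL had 11 higher and 37 lower. Shares of all genes at this ratio or with a pseudocount of 0.1 were not computed.

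A TOTAL mean of at least 20 (145 genes) gave 42 lower over TOTAL, 56 higher and 22 lower over INPUT, 81 higher over BO, and 1 higher and 34 lower in INPUT over TOTAL. A TOTAL mean of at least 100 (65 genes) gave 22 higher over INPUT and 29 higher over BO. Without a limit (744 genes) there were 121 higher and 187 lower over TOTAL, 142 and 73 over INPUT (19.1% and 9.81% beside 17.3% and 13.96% of all 20981 genes), 206 and 25 over BO (27.7% and 3.36% beside 35.2% and 9.58%) with a median of 0.32, and 15 and 159 in INPUT over TOTAL (2.02% and 21.4% beside 2.88% and 16.9%). These counts come from other numbers of genes. Shares of all genes were not computed at limits of 20 and 100, so those counts cannot be set against a background. The 55 genes that share no exonic base gave 23 higher and 14 lower over TOTAL and 31 higher over BO (56.4% beside 42.1% of all such genes). Without X-linked genes, a setting added after the data were seen, 7 were lower over INPUT and 4 over BO. Of all autosomal genes, 14.4% and 10.2% were. Leaving out genes that share over 10% of their windows, also added then, moved no count by over 1.5 times. Without values per library, no statement here rests on a known depth.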
